A study of Homo sapiens with 3 samples.

Results

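The genes described here are 49 cytosolic and mitochondrial heat shock chaperones and their helpers, out of 19266 genes listed in the gene tables. They were chosen by gene symbol and comprise the HSP70, HSP110, HSP90, HSP40 and small heat shock protein families, the BAG proteins, the HSP90 co-chaperones, the CCT chaperonin, the mitochondrial chaperones and the transcription factors HSF1 and HSF2. Of these, 48 had enough counts to be tested, and the one left out, the HSP40 gene DNAJA4, had 4, 3 and 3 counts in sh1 libraries, 2, 3 and 3 in sh2 libraries and 3, 3 and 5 in control libraries. The cells were KYSE510, an established line of esophageal squamous cell carcinoma grown in RPMI-1640 medium. They were infected for 24 h with a lentivirus carrying hairpin 1 (sh1) or hairpin 2 (sh2) against the transcript TCONS_02256997, or a scrambled hairpin (control), and all 3 groups were then kept for 48 h in 4 µM puromycin, so the control cells carried virus and drug selection too. The question stated for the series was which genes the transcript affects, and the level of the transcript itself is not analysed here.

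Each group was 1 sample with 3 numbered gene tables, used here as 3 libraries. The labels do not tell whether these are cultures, libraries or repeat runs, so every p-value measures only the spread between tables, which may be technical, and no call is backed by a test between samples. Total estimated counts were 14660821 to 14770512 in sh1, 15759270 to 16092417 in sh2 and 15012961 to 15414591 in control libraries. The 8 squamous and epithelial markers examined (among them KRT5, TP63 and CDH1) were all above 1 TPM (a level scaled to transcript length and library) in every group, with summed levels of 2493 to 2529 TPM in sh1, 2104 to 2159 TPM in sh2 and 2724 to 2801 TPM in control libraries. The sums hide opposite shifts. KRT5, KRT14, TP63 and DSG3 were lower than control with both hairpins, and SOX2 and EPCAM were higher. CDH1 was higher with sh1 and KRT6A with sh2. Fold differences from control ranged from 0.24 (KRT14) to 2.39 (SOX2) with sh1 and from 0.45 (TP63) to 1.67 (SOX2) with sh2. Leukocyte markers summed to 4.79 to 5.17 TPM in sh1, 4.57 to 6.42 TPM in sh2 and 3.82 to 4.48 TPM in control libraries. Endothelial and fibroblast markers summed to 22.8 to 25.8 TPM in sh1, 27.7 to 29.1 TPM in sh2 and 22.1 to 23.0 TPM in control libraries. Most of this sum was COL1A1, which averaged 22.4 TPM in sh1, 27.15 TPM in sh2 and 20.7 TPM in control libraries. COL1A1 was higher than control with both hairpins and VWF lower with both. PECAM1, COL3A1 and DCN were below 1 TPM in every group. The part of these differences in the chaperone results was not tested, and in bulk RNA a change in the number of cells of one kind cannot be told apart from a change in RNA per cell.

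Chaperones bind unfolded proteins and help them fold, keep them from aggregating or pass them to degradation. HSP70 works in a cycle driven by ATP, in which HSP40 proteins deliver clients and start hydrolysis, while HSP110 and BAG proteins release the nucleotide, and HSP90 takes over many kinases and steroid receptors at a later stage of folding. Under proteotoxic stress the factor HSF1 forms a trimer and binds heat shock elements, which are inverted repeats of the unit GAA and its complement TTC, in the promoters of the stress-inducible genes. Squamous carcinoma cells, like most cancer cells, keep high levels of many of these proteins.

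The promoter sequences below are shown because they hold letters that match the heat shock element. They are RefSeq sequences of the build GRCh38.p14, given 5′ to 3′ on the gene's own strand, while the submitters' notes name hg19 for the counts. The first set gives the 250 bases before the annotated start of HSPA8 (chr11:123062137-123062386, minus strand), HSP90AA1 (chr14:102087045-102087294, minus strand) and HSPA1A (chr6:31815293-31815542, plus strand), with capitals on 3-unit matches (GAANNTTCNNGAA or its reverse complement TTCNNGAANNTTC) in HSPA8 and HSP90AA1 and on the 2-unit match (GAANNTTC) in HSPA1A.
HSPA8: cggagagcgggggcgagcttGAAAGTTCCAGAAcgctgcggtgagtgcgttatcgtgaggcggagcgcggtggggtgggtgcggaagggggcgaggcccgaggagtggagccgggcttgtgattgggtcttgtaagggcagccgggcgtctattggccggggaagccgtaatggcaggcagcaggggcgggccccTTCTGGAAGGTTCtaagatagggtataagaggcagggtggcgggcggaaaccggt
HSP90AA1: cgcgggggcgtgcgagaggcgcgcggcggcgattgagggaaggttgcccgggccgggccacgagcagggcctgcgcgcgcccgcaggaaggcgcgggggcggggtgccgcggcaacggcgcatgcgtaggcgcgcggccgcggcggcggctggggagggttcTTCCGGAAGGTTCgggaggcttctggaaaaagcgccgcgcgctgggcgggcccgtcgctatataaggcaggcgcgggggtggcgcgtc
HSPA1A: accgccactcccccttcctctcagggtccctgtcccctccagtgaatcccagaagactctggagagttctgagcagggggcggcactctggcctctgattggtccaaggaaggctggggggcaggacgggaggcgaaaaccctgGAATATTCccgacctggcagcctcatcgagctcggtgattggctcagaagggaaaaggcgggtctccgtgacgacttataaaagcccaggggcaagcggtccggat
The 3-unit matches of HSPA8 lay 230 to 218 and 55 to 43 bases before the start, and that of HSP90AA1 lay 88 to 76 bases before it. The windows of HSPA1A and HSPA1B, 2 neighbouring near-identical genes, were identical at 277 of 301 aligned columns (92%), and both held the same 2-unit match.

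The next set shows 3-unit matches, again in capitals, from the 5 other members that had any. For HSP90AB1, which had 2 matches, the one nearer the start is shown. They came from HSPD1 (chr2:197500061-197500090, minus strand), HSP90AB1 (chr6:44247824-44247850, plus strand), CHORDC1 (chr11:90223080-90223116, minus strand), DNAJA1 (chr9:33025269-33025295, plus strand) and DNAJB6 (chr7:157336866-157336892, plus strand).
HSPD1: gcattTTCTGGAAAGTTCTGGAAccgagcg
HSP90AB1: gagattgTTCTGGAAGCTTCtggattc
CHORDC1: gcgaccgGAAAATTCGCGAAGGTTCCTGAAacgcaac
DNAJA1: ccgggcgGAACTTTCCAGAAcgctcgg
DNAJB6: gagccgaGAACCTTCGCGAAggtgggg
The last set shows 2-unit matches, in capitals, of the HSP40 gene DNAJB1 (chr19:14518430-14518481, minus strand), of HSPB8 (chr12:119178836-119178857, plus strand) and of HSPA1B (chr6:31827626-31827647, plus strand).
DNAJB1: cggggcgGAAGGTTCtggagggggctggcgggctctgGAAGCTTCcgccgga
HSPB8: cacctccGAATATTCctgtgac
HSPA1B: acccctgGAATATTCccgacct
HSPB8 and HSPA1B shared the same 8 letters in capitals.

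A promoter window of 250 bases before to 50 bases after the annotated start was matched for 42 of the 49 members, which gave 61 windows because some genes have several starts. The other members are CCT6A, CRYAB, FKBP4, HSF1, HSPA14, ST13 and STUB1. The 3-unit element, searched on both strands, was found in 11.5% of the members' windows and in 0.490% of all 35116 windows. The 2-unit element (GAANNTTC or TTCNNGAA), which every 3-unit match also contains, was found in 36.1% of the members' windows and in 13.5% of all windows. The genes with a 3-unit match were CHORDC1, DNAJA1, DNAJB6, HSP90AA1, HSP90AB1, HSPA8 and HSPD1. A match is a description of the letters and not evidence of binding. The search took exact letters at a fixed spacing in this window only. A gene without a match may thus still hold an element with altered letters or one outside the window.

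**Figure D1:**
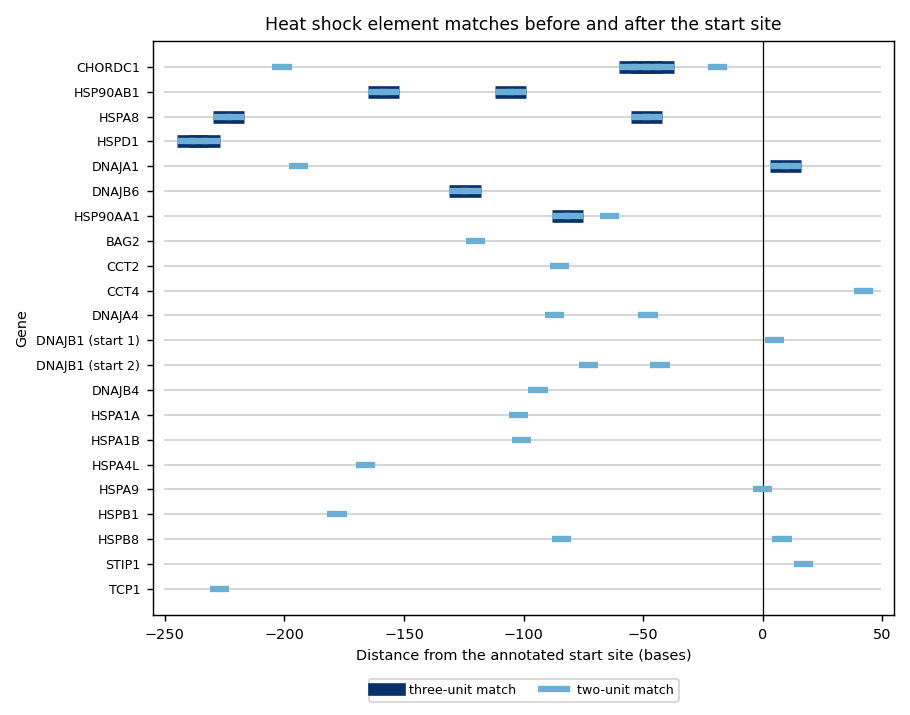
Positions of heat shock element matches in the promoter windows of members that hold one; the x axis is the distance in bases from the annotated start site, dark bars are 3-unit and light bars 2-unit matches, and the numbered starts of DNAJB1 are separate RefSeq starts. The 3-unit match of DNAJA1 is the one that lies after its start, and CHORDC1 holds overlapping matches between 60 and 38 bases before its start.

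Per length, the cytosolic HSP90 genes led the members in every group. HSP90AA1, the stress-inducible form, averaged 2280 ± 30.3 TPM in sh1, 2226 ± 48.5 TPM in sh2 and 1221 ± 22.5 TPM in control libraries (SD, n = 3 each). HSP90AB1, the constitutive form, averaged 2005 ± 25.0 TPM in sh1, 2662 ± 51.3 TPM in sh2 and 1719 ± 59.0 TPM in control libraries (SD, n = 3 each). Next in control libraries came HSPB1 at 1084 ± 18.6 TPM, the mitochondrial chaperonin HSPD1 at 817 ± 3.67 TPM and the constitutive HSP70 gene HSPA8 at 693 TPM with an SD of 16. In sh1 libraries HSPA8, at 1524 ± 27.3 TPM, stood above HSPB1 at 1318 ± 12.1 TPM and HSPD1 at 1310 ± 42.5 TPM, and those 2 did not differ beyond their spread. In sh2 libraries HSPA8 averaged 1631 ± 13.2 TPM, HSPB1 1411 ± 80.7 TPM and HSPD1 1182 ± 30.2 TPM. DNAJA4 was lowest, at 0.190 TPM in sh1, 0.137 TPM in sh2 and 0.210 TPM in control libraries. The 49 genes together took 1.81% to 1.82% of all counts in sh1, 1.98% to 2.01% in sh2 and 1.35% to 1.37% in control libraries, and the groups did not overlap.

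**Figure D2:**
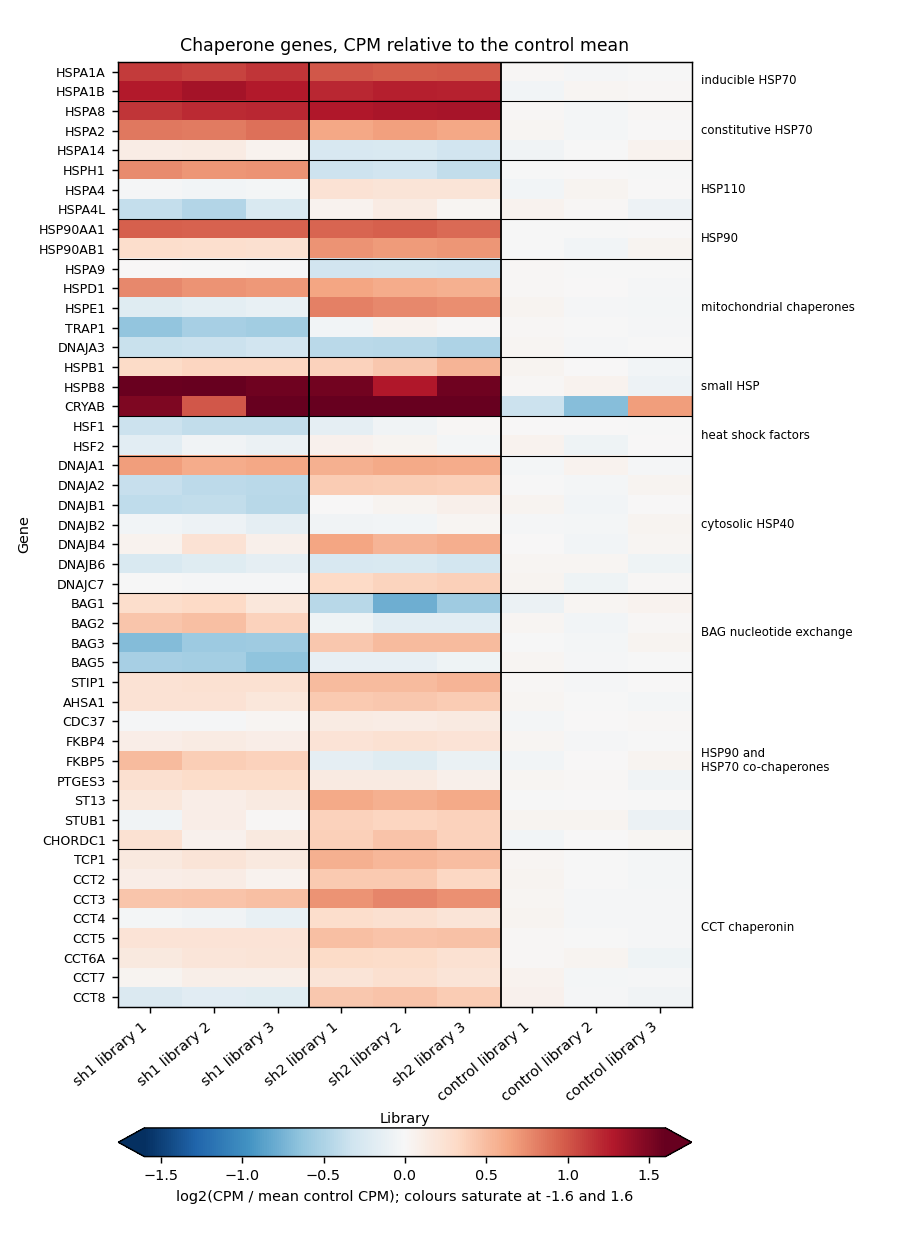
Each member (rows, grouped by role) in each of the 9 libraries (columns, sh1, sh2, then control), coloured by its log2 CPM (counts scaled to the size of the library) relative to the mean of the control libraries. The inducible HSP70 genes, HSPA8, HSP90AA1, HSPD1 and HSPB8 are high in all 6 hairpin libraries, and the CCT rows are higher in sh2 than in sh1.

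Most chaperone genes were higher with either hairpin, and more of them with sh2. In sh1 against control, 28 of 48 members were higher (58.3%) and 11 lower (22.9%) by edgeR's quasi-likelihood test at an adjusted p below 0.05, while of all 13580 genes tested 34.7% were called higher and 34.6% lower. In sh2 against control, 33 members were higher (68.8%) and 9 lower (18.8%), against 34.2% and 34.3% of all genes. With about 7 in 10 of all genes called in each comparison (69.3% with sh1, 68.5% with sh2), a call by itself says little, and the sizes matter more. The median log2 difference of the members was 0.13 in sh1 and 0.38 in sh2 against control, where the medians of all genes were 0.01 and 0.0046. The 2 comparisons share their control libraries.

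Few of these differences reached 2-fold. With sh1, 5 members were at least 2-fold higher (HSPA1A, HSPA1B, HSPA8, HSPB8 and CRYAB) and none lower, where 3.93% and 5.21% of all genes were. With sh2, 4 members were (HSPA1B, HSPA8, HSPB8 and CRYAB) and none lower, where 3.14% and 4.61% of all genes were. CRYAB passed the filter on low counts through the hairpin groups alone, where it is high. Its calls against control are thus no support for a difference, although it is counted among the members called higher with each hairpin. In the direct comparison of sh1 with sh2, 11 of 48 members were higher in sh1 (22.9%) and 31 lower (64.6%), against 34.2% and 35.6% of all genes (69.8% either way), with a median log2 difference of -0.17. At 2-fold, HSPH1 was higher in sh1 than in sh2 and CRYAB and BAG3 were lower, where 4.37% of all genes were higher and 3.90% lower.

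**Figure D3:**
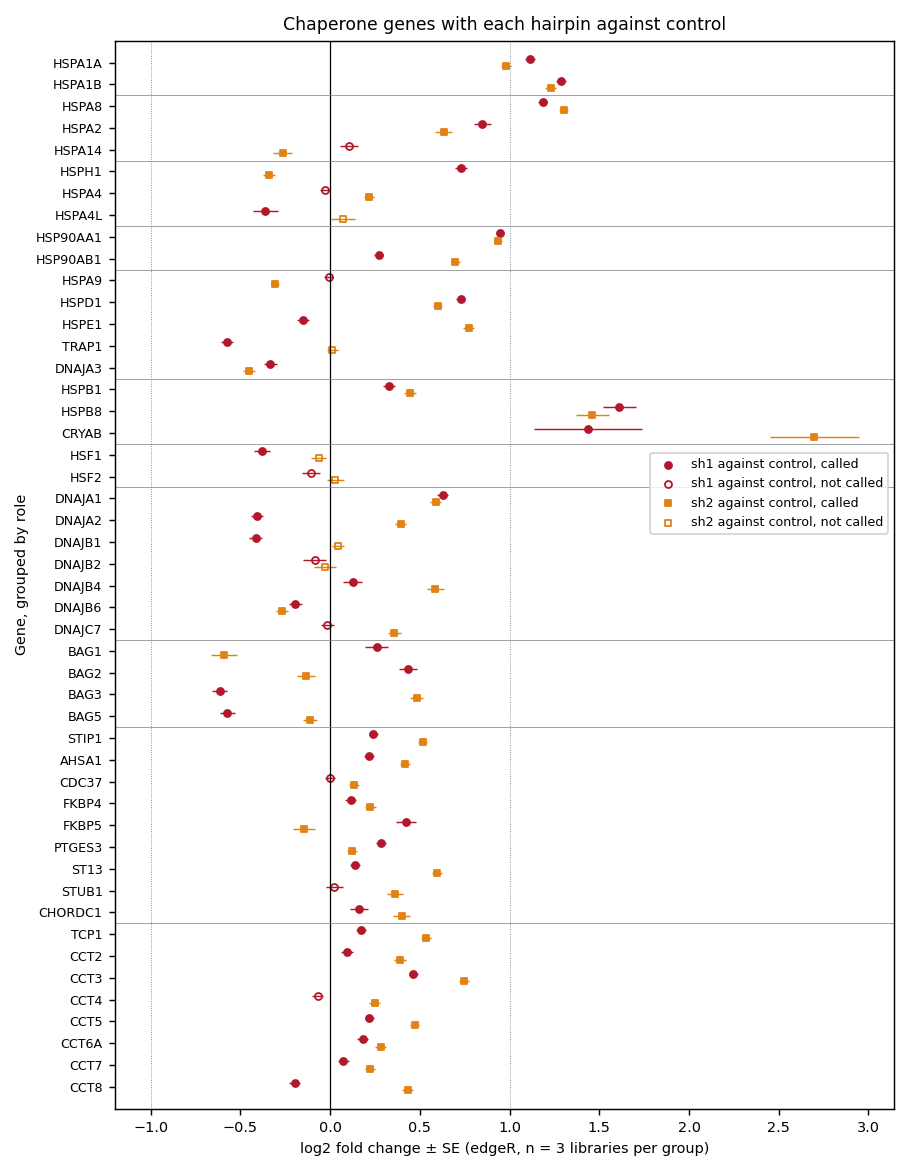
Log2 fold change of each tested member with its standard error, against control for sh1 and sh2, with filled points for calls at an adjusted p below 0.05. HSPB8 and CRYAB have the largest values, while HSPH1, HSPE1, DNAJA2, BAG3 and CCT8 lie on opposite sides of 0 for the 2 hairpins.

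Of the 5 cytosolic HSP70 genes among the members, 4 rose with both hairpins, where 34.7% of all genes were higher with sh1 and 34.2% with sh2. HSPA1A, a stress-inducible HSP70, had 523, 510 and 535 CPM in sh1, 483, 473 and 475 CPM in sh2, and 245, 238 and 241 CPM in control libraries. HSPA1B, its near-identical neighbour, had 511, 534 and 511 CPM in sh1, 490, 504 and 501 CPM in sh2, and 207, 216 and 215 CPM in control libraries. For both genes every hairpin library lay above every control library. The log2 difference of HSPA1A was 1.11 ± 0.0279 with sh1 (SE, adjusted p = 1.17e-24 by edgeR's quasi-likelihood test) and 0.98 ± 0.0279 with sh2 (adjusted p = 3.73e-23). For HSPA1B it was 1.29 ± 0.0291 with sh1 (adjusted p = 1.05e-25) and 1.23 ± 0.0290 with sh2 (adjusted p = 4.59e-25). How the counting divided reads between these copies is uncertain, so their sum is safer: it was 1010, 998 and 1011 TPM in sh1, 934, 927 and 926 TPM in sh2, and 446, 456 and 460 TPM in control libraries. The summed counts were higher by a fold of 2.29 with sh1 and 2.15 with sh2 (adjusted p = 7.69e-27 and 7.59e-26).

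HSPA8, the constitutive HSP70 that serves general folding and uncoats clathrin vesicles, changed by as much as the inducible genes. It had 1519, 1576 and 1591 CPM in sh1, 1673, 1694 and 1717 CPM in sh2, and 693, 671 and 698 CPM in control libraries. The 3 groups did not overlap, and the fold difference was 2.27 with sh1 and 2.47 with sh2 (log2 1.18 ± 0.0255 and 1.30 ± 0.0255, adjusted p = 3.05e-26 and 4.74e-27 by edgeR's quasi-likelihood test). HSPA2, a constitutive HSP70 best known from spermatogenesis, had 57.2, 56.8 and 58.6 CPM in sh1, 48.9, 50.5 and 49.1 CPM in sh2, and 32.5, 31.2 and 32.1 CPM in control libraries. It too was separated between all groups, with log2 differences of 0.85 ± 0.0468 and 0.63 ± 0.0475 (adjusted p = 3.8e-16 and 6.79e-13). HSPA14, an HSP70 relative bound to ribosomes, averaged 37.3 CPM in sh1, 28.8 CPM in sh2 and 34.7 CPM in control libraries, and it fell with sh2 (log2 -0.27, adjusted p = 8.06e-05). It was not called with sh1 (log2 0.11, adjusted p = 0.0749 by edgeR's quasi-likelihood test). The sh1 difference was called higher without control library 3 (log2 0.14) and by limma on FPKM in every setting (log2 0.16 to 0.17).

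The ratio of inducible to constitutive HSP70 was set against control within each library, per length. HSPA1A plus HSPA1B over HSPA8 was 0.674, 0.655 and 0.651 in sh1, 0.575, 0.571 and 0.563 in sh2, and 0.646, 0.672 and 0.648 in control libraries. The sh1 libraries overlapped the control libraries, with a log2 difference of 0.01 (p = 0.5 by an exact two-sided permutation test). The sh2 libraries all lay below both other groups, with a log2 difference of -0.20 from control (exact permutation p = 0.1, the smallest that 3 against 3 allows). The ratio was thus not above control beyond its spread with either hairpin. With 3 against 3, the test could not have called a gain at p below 0.05.

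**Figure D4:**
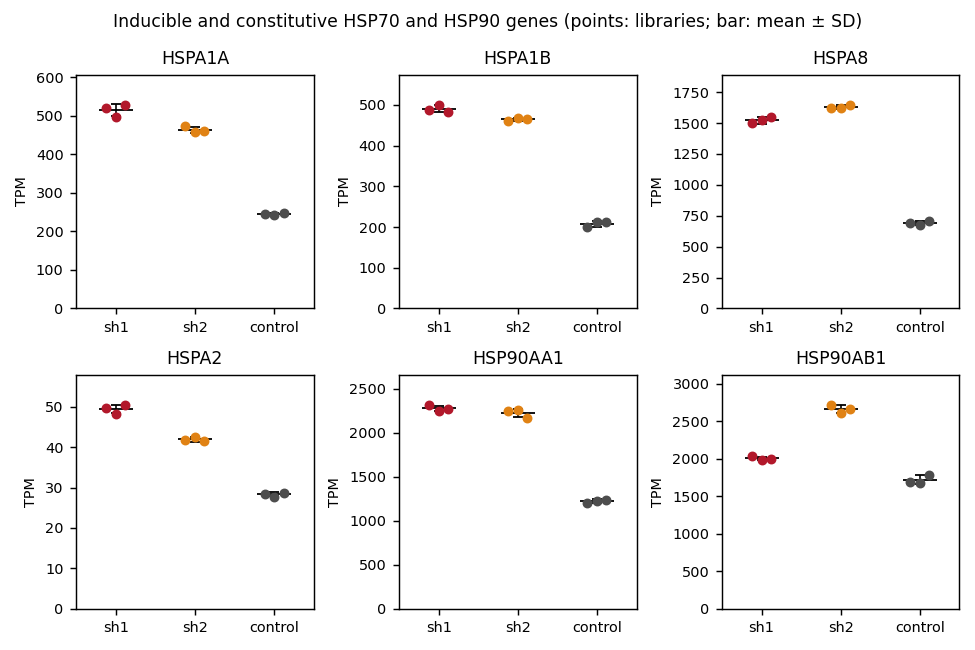
TPM of the HSP70 and HSP90 genes in each library (points) with the group mean and SD, for sh1, sh2 and control. HSPA1A, HSPA1B and HSPA8 each sit above control in all hairpin libraries, and HSP90AB1 is highest in sh2.

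Of the HSP110 genes, which release the nucleotide from HSP70, only HSPH1 moved by more than a factor of 2 in any comparison, and it moved in opposite directions. It had 256, 247 and 250 CPM in sh1, 121, 123 and 115 CPM in sh2, and 151, 152 and 151 CPM in control libraries. All 3 groups were apart, with log2 differences of 0.73 ± 0.0313 for sh1 against control, -0.34 ± 0.0336 for sh2 against control and 1.07 ± 0.0320 for sh1 against sh2 (adjusted p = 8.19e-19, 2.44e-10 and 1.68e-22 by edgeR's quasi-likelihood test). HSPA4 averaged 341 CPM in sh1, 404 CPM in sh2 and 348 CPM in control libraries, and rose with sh2 (log2 0.22, adjusted p = 3.77e-08). HSPA4L averaged 17.9 CPM in sh1, 24.2 CPM in sh2 and 23.0 CPM in control libraries, and fell with sh1 (log2 -0.36, adjusted p = 4.64e-05).

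Both cytosolic HSP90 genes rose with both hairpins, in different proportions, where 34.7% of all genes were higher with sh1 and 34.2% with sh2. HSP90AA1 had 3210, 3189 and 3187 CPM in sh1, 3170, 3223 and 3096 CPM in sh2, and 1644, 1655 and 1668 CPM in control libraries. The hairpin groups overlapped each other and lay far above control, with log2 differences of 0.95 ± 0.0226 with sh1 and 0.93 ± 0.0226 with sh2 (adjusted p = 3.63e-25 and 7.75e-25 by edgeR's quasi-likelihood test). Between sh1 and sh2 its log2 difference was 0.01 ± 0.0222 (adjusted p = 0.573). HSP90AB1 had 2258, 2251 and 2238 CPM in sh1, 3061, 2979 and 3042 CPM in sh2, and 1860, 1816 and 1921 CPM in control libraries. Here sh2 was highest and the groups were apart, with log2 differences of 0.27 ± 0.0237 with sh1, 0.70 ± 0.0237 with sh2 and -0.43 ± 0.0236 for sh1 against sh2 (adjusted p = 2.15e-11, 3.2e-21 and 4.31e-16). The TPM ratio of HSP90AA1 to HSP90AB1 was 1.14, 1.13 and 1.14 in sh1, 0.829, 0.866 and 0.815 in sh2, and 0.707, 0.729 and 0.695 in control libraries. No 2 groups overlapped, so the inducible form outnumbered the constitutive one in sh1 only, and the exact permutation p was 0.1 for each pair, the smallest that 3 against 3 allows.

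Of the 9 co-chaperones, 7 rose with sh1 and none fell, and 8 rose and 1 fell with sh2, where 34.7% and 34.6% of all genes did with sh1 and 34.2% and 34.3% with sh2. STIP1, the adaptor that hands clients from HSP70 to HSP90, averaged 434 CPM in sh1, 525 CPM in sh2 and 367 CPM in control libraries (log2 0.24 and 0.52 against control). AHSA1, which speeds up the HSP90 ATPase, averaged 260 CPM in sh1, 299 CPM in sh2 and 224 CPM in control libraries (log2 0.22 and 0.42). The HSP70-binding ST13 averaged 348 CPM in sh1, 477 CPM in sh2 and 316 CPM in control libraries (log2 0.14 and 0.60). These 3 rose with both hairpins and were higher in sh2 than in sh1, as were FKBP4 and CHORDC1, which also rose with both. The p23 gene PTGES3, whose product stabilises closed HSP90, averaged 578 CPM in sh1, 517 CPM in sh2 and 475 CPM in control libraries and was thus higher in sh1. The call of CHORDC1 with sh1 (log2 0.16) was lost without sh1 library 1 (log2 0.11, adjusted p = 0.0544). CDC37, which brings kinases to HSP90, averaged 242 CPM in sh1, 266 CPM in sh2 and 242 CPM in control libraries and was called with sh2 but not with sh1 (adjusted p = 0.000146 and 0.962). The ubiquitin ligase gene STUB1 averaged 57.2 CPM in sh1, 72.4 CPM in sh2 and 56.3 CPM in control libraries, and it was called higher with sh2 (log2 0.36). FKBP5, an immunophilin of steroid receptor complexes, had 37.1, 34.2 and 33.9 CPM in sh1, 23.7, 22.9 and 24.4 CPM in sh2, and 25.3, 26.3 and 26.8 CPM in control libraries. It was apart in all groups and rose with sh1 (log2 0.42 ± 0.0574, adjusted p = 1.34e-07 by edgeR's quasi-likelihood test). With sh2 it was lower (log2 -0.15 ± 0.0611, adjusted p = 0.0366), a call lost without sh2 library 1 or 2 or control library 2 or 3 (log2 -0.15, -0.13, -0.15 and -0.13) and by DESeq2.

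The HSP40 genes, whose products choose the clients of HSP70, are described singly. Of 7 tested, 2 rose and 3 fell with sh1, near the 34.7% higher and 34.6% lower of all genes, and 4 rose and 1 fell with sh2, where 34.2% and 34.3% of all genes did. DNAJA1, a general partner of HSPA8, averaged 295 CPM in sh1, 288 CPM in sh2 and 191 CPM in control libraries and rose with both (log2 0.63 ± 0.0310 and 0.59 ± 0.0309, with 0.04 between sh1 and sh2, adjusted p = 0.259). DNAJA2, its close relative, had 103, 99.1 and 98.6 CPM in sh1, 176, 175 and 173 CPM in sh2, and 132, 130 and 136 CPM in control libraries. The groups were apart on either side of control, with log2 differences of -0.41 ± 0.0344 with sh1, 0.39 ± 0.0318 with sh2 and -0.80 ± 0.0332 for sh1 against sh2 (adjusted p = 7.7e-12, 3.54e-12 and 4.24e-19 by edgeR's quasi-likelihood test). DNAJB1, the main HSP40 of the heat shock response, had 113, 114 and 110 CPM in sh1, 151, 154 and 159 CPM in sh2, and 154, 145 and 150 CPM in control libraries. It fell with sh1 (log2 -0.41, adjusted p = 7.35e-12), while sh2 overlapped control (log2 0.04, adjusted p = 0.263). Its level did not follow that of HSPA1A and HSPA1B. Its promoter is among those printed above, and a link between promoter letters and level was not tested.

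DNAJB6, known for keeping polyglutamine proteins from aggregating, averaged 130 CPM in sh1, 124 CPM in sh2 and 149 CPM in control libraries and fell with both (log2 -0.19 and -0.27, adjusted p = 1.56e-05 and 8.11e-08). It was the single gene with a 3-unit element that did. DNAJB4 averaged 43.5 CPM in sh1, 59.8 CPM in sh2 and 39.8 CPM in control libraries, a rise with sh2 (log2 0.59, adjusted p = 6.08e-12). Its smaller rise with sh1 (log2 0.13, adjusted p = 0.0325) was lost without sh1 library 2, control library 1 or control library 2 (log2 0.07, 0.13 and 0.10), by DESeq2 and by limma on unfiltered FPKM. DNAJC7, which binds both HSP70 and HSP90, averaged 95.8 CPM in sh1, 124 CPM in sh2 and 96.8 CPM in control libraries and rose with sh2 (log2 0.36). DNAJB2 was called in no comparison, at 21.4 CPM in sh1, 22.3 CPM in sh2 and 22.7 CPM in control libraries.

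The BAG genes encode proteins that free HSP70 from its clients and route them onward. Each of the 4 was called between the hairpins, 2 higher and 2 lower in sh1 than in sh2. Of all genes, 34.2% were higher and 35.6% lower in that comparison (69.8% either way), so these counts say little of the family. BAG3, the partner of HSPB8 in chaperone-assisted autophagy, had 63.0, 68.4 and 68.6 CPM in sh1, 138, 145 and 145 CPM in sh2, and 101, 99.6 and 105 CPM in control libraries. The groups lay apart with control in the middle, and the log2 differences were -0.62 ± 0.0415 with sh1, 0.48 ± 0.0368 with sh2 and -1.10 ± 0.0395 for sh1 against sh2 (adjusted p = 4.91e-14, 9.47e-13 and 1.52e-20 by edgeR's quasi-likelihood test). BAG1, which links HSP70 to the proteasome, had 35.0, 35.9 and 32.7 CPM in sh1, 21.3, 16.8 and 19.4 CPM in sh2, and 27.1, 29.5 and 30.0 CPM in control libraries. Its order was the reverse of that of BAG3, with log2 differences of 0.26 ± 0.0651 with sh1, -0.59 ± 0.0721 with sh2 and 0.85 ± 0.0700 for sh1 against sh2 (adjusted p = 0.000808, 2.03e-08 and 5.23e-12). BAG2, an inhibitor of the ligase encoded by STUB1, had 51.9, 53.4 and 49.5 CPM in sh1, 36.4, 33.8 and 34.1 CPM in sh2, and 38.9, 37.1 and 38.6 CPM in control libraries. It rose with sh1 (log2 0.43 ± 0.0489, adjusted p = 4.08e-09), and its lower value with sh2 (log2 -0.14 ± 0.0519, adjusted p = 0.0225) lost its call without sh2 library 2, sh2 library 3 or control library 1 (log2 -0.12, -0.12 and -0.13) and by DESeq2. BAG5 averaged 49.1 CPM in sh1, 67.6 CPM in sh2 and 73.0 CPM in control libraries. It fell with sh1 (log2 -0.57 ± 0.0428), and its difference with sh2 (log2 -0.11, adjusted p = 0.0149) was lost without sh2 library 1 (log2 -0.10, adjusted p = 0.0546) and by DESeq2.

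**Figure D5:**
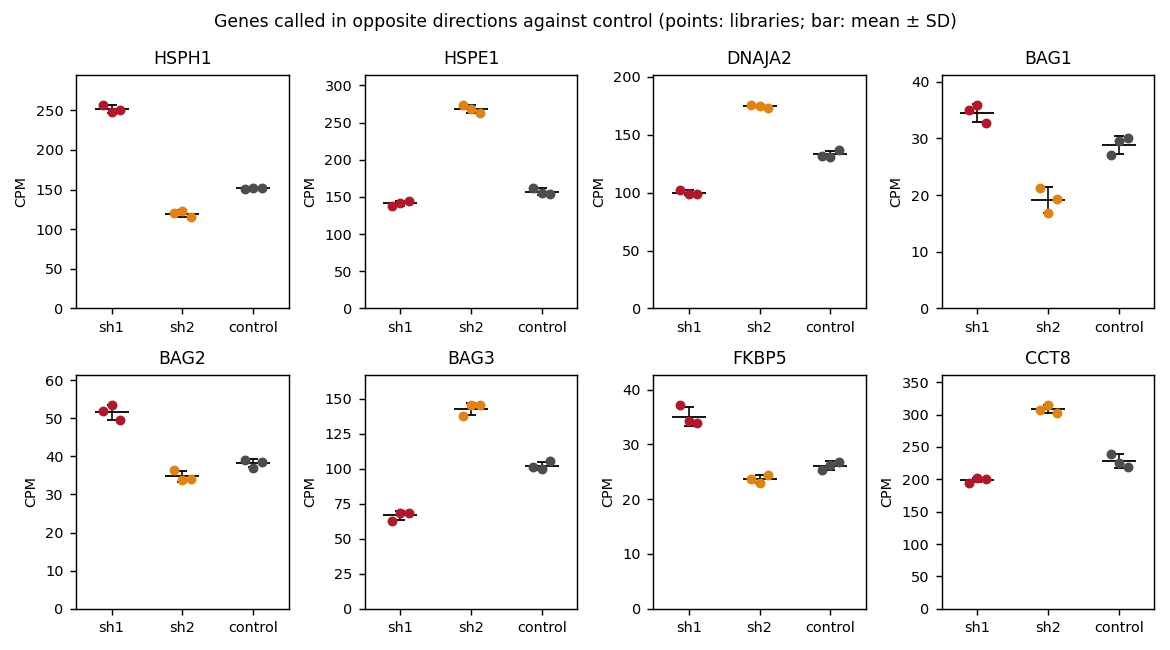
CPM of the 8 members called in opposite directions by the 2 hairpins against control, in each of the 9 libraries, with group means. HSPH1, BAG1, BAG2 and FKBP5 are highest in sh1, and HSPE1, DNAJA2, BAG3 and CCT8 are highest in sh2.

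The 3 small heat shock proteins among the members hold unfolded proteins without using ATP. All were called higher with both hairpins, where 34.7% of all genes were with sh1 and 34.2% with sh2. HSPB8 had 22.1, 24.1 and 21.7 CPM in sh1, 21.5, 17.9 and 21.7 CPM in sh2, and 7.48, 7.72 and 6.99 CPM in control libraries. Every hairpin library was above every control library and the hairpins overlapped, with fold differences of 3.06 and 2.75 (log2 1.61 ± 0.0924 and 1.46 ± 0.0932, adjusted p = 9.82e-16 and 1.46e-14 by edgeR's quasi-likelihood test). CRYAB, which encodes alphaB-crystallin, had few reads: 31, 22 and 37 counts in sh1, 72, 83 and 78 counts in sh2, and 9, 7 and 18 counts in control libraries. The groups did not overlap, and the log2 differences were 1.44 ± 0.300 with sh1, 2.70 ± 0.249 with sh2 and -1.26 ± 0.203 for sh1 against sh2 (adjusted p = 0.000101, 6.8e-11 and 2.6e-06). CRYAB passed the filter on low counts through the sh1 and sh2 groups alone, the groups where it is high. Its calls against control are thus no support for a difference. Across the other settings tried, its log2 differences ranged from 0.93 to 1.94 with sh1 and from 1.80 to 3.19 with sh2. HSPB1, the abundant small heat shock protein HSP27, had 477, 492 and 491 CPM in sh1, 500, 520 and 564 CPM in sh2, and 398, 388 and 376 CPM in control libraries. It was above control in every hairpin library (log2 0.33 ± 0.0335 and 0.45 ± 0.0333).

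Neither heat shock factor was higher with a hairpin. HSF1, the main activator of the response, had 60.5, 58.5 and 58.7 CPM in sh1, 69.6, 73.9 and 77.9 CPM in sh2, and 77.5, 77.1 and 76.7 CPM in control libraries. The sh1 libraries were all below control (log2 -0.38 ± 0.0427, adjusted p = 3.85e-09 by edgeR's quasi-likelihood test), while sh2 overlapped control (log2 -0.06, adjusted p = 0.169). Without sh2 library 3, the sh2 difference was called (log2 -0.10, adjusted p = 0.0309). HSF2 had 43.1, 46.5 and 45.2 CPM in sh1, 50.6, 50.0 and 47.5 CPM in sh2, and 50.2, 46.2 and 48.7 CPM in control libraries. It was called against control with neither sh1 (log2 -0.11, adjusted p = 0.0552) nor sh2 (log2 0.03, adjusted p = 0.589), although without sh1 library 2, sh2 library 3 or control library 2 the sh1 difference was called (log2 -0.13, -0.11 and -0.14), as it was with RLE size factors and with only the 2 groups compared (log2 -0.11 each). These are RNA levels, and HSF1 is known to be controlled largely by its binding partners and by modification of the protein.

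Of the 5 mitochondrial chaperones, 1 rose and 3 fell with sh1, and 2 rose and 2 fell with sh2. With so few genes, and 34.7% of all genes higher and 34.6% lower with sh1 (34.2% and 34.3% with sh2), the counts say nothing of the class, and the genes are described singly. HSPD1, the chaperonin HSP60 that encloses proteins imported into the matrix, had 1303, 1260 and 1243 CPM in sh1, 1184, 1159 and 1139 CPM in sh2, and 775, 767 and 755 CPM in control libraries. It was apart in all groups, with log2 differences of 0.73 ± 0.0254 with sh1 and 0.60 ± 0.0254 with sh2 (adjusted p = 4.5e-21 and 7.25e-19 by edgeR's quasi-likelihood test). HSPE1, which encodes the lid of that chaperonin, had 138, 141 and 145 CPM in sh1, 273, 268 and 263 CPM in sh2, and 162, 155 and 154 CPM in control libraries. With sh1 it was the lowest group and with sh2 the highest, with log2 differences of -0.15 ± 0.0335 and 0.77 ± 0.0313 against control and -0.92 ± 0.0318 for sh1 against sh2 (adjusted p = 0.000191, 2.54e-19 and 5.1e-21). The read-through transcript HSPE1-MOB4 overlaps HSPE1, and adding its counts gave -0.16, 0.77 and -0.93. HSPD1 and HSPE1 lie head to head on chromosome 2, and the HSPE1 start is 105 bases from the nearest HSPD1 start, so the pair shares the region between them. The 3-unit match of HSPD1 is not within those 105 bases. It lies before the other HSPD1 start, which is 539 bases from the HSPE1 start. The match is thus between that HSPD1 start and the HSPE1 start. The outer edge of the match is 294 bases from the HSPE1 start, beyond the 250 bases searched before it.

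TRAP1, the mitochondrial HSP90, had 177, 189 and 186 CPM in sh1, 267, 286 and 277 CPM in sh2, and 279, 274 and 271 CPM in control libraries. It fell with sh1 (log2 -0.58 ± 0.0323, adjusted p = 5.84e-16 by edgeR's quasi-likelihood test) and overlapped control with sh2 (log2 0.01, adjusted p = 0.765). HSPA9, the HSP70 of the mitochondrial matrix, had 673, 664 and 660 CPM in sh1, 541, 547 and 536 CPM in sh2, and 676, 665 and 669 CPM in control libraries. The reverse held here, since sh2 was below control (log2 -0.31 ± 0.0246, adjusted p = 3.03e-12) and sh1 overlapped it (log2 -0.01, adjusted p = 0.769). DNAJA3, the HSP40 of the matrix, averaged 91.1 CPM in sh1, 83.9 CPM in sh2 and 115 CPM in control libraries and fell with both (log2 -0.33 and -0.45).

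The CCT chaperonin, a ring of 8 different subunits that folds actin and tubulin, rose as a whole with sh2. All 8 subunit genes were higher with sh2 (34.2% of all genes were), with a median log2 difference of 0.41, while with sh1 6 were higher and 1 lower (34.7% and 34.6% of all genes), with a median of 0.13. All 8 were lower in sh1 than in sh2 (35.6% of all genes), with a median of -0.29. CCT3, the subunit gene with the largest rise, had 596, 600 and 610 CPM in sh1, 720, 750 and 727 CPM in sh2, and 447, 432 and 431 CPM in control libraries. The groups were apart, with log2 differences of 0.46 ± 0.0267 with sh1 and 0.75 ± 0.0264 with sh2 (adjusted p = 1.04e-15 and 8.99e-21 by edgeR's quasi-likelihood test). CCT8, the subunit that fell with sh1, had 195, 202 and 200 CPM in sh1, 308, 314 and 302 CPM in sh2, and 240, 226 and 219 CPM in control libraries. Its log2 differences were -0.20 ± 0.0330 with sh1, 0.43 ± 0.0316 with sh2 and -0.63 ± 0.0321 for sh1 against sh2 (adjusted p = 4.19e-06, 3.51e-13 and 6.6e-17). TCP1, the first subunit of the ring, averaged 398 CPM in sh1, 511 CPM in sh2 and 353 CPM in control libraries (log2 0.17 and 0.53). The other subunits ranged with sh2 from a log2 difference of 0.22 for CCT7 to 0.47 for CCT5. With sh1 the small rises of CCT2 (log2 0.09) and CCT7 (log2 0.07) were not stable, since the call of CCT2 was lost without sh1 library 2 or control library 3 (log2 0.08 each), and that of CCT7 without sh1 library 2, sh1 library 3, control library 2 or control library 3 (log2 0.07, 0.07, 0.06 and 0.06) and by DESeq2 (adjusted p = 0.0517). CCT4 was not called with sh1 (log2 -0.07, adjusted p = 0.0502) and was called lower without sh1 library 1, sh2 library 1 or sh2 library 3 (log2 -0.08, -0.07 and -0.07). It was also called lower with RLE size factors, without the filter, by DESeq2, with only the 2 groups compared and with the replicate block (adjusted p between 0.0179 and 0.0482).

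The members' calls were also read beside their promoter matches. Of the 7 genes with a 3-unit element, 6 rose and 1 fell with each hairpin. Of the 14 with a 2-unit match alone, among which DNAJA4 was not tested, 9 rose and 2 fell with each hairpin. Of the 21 with neither exact match in the window, which include BAG3, HSPH1 and HSPE1, 9 rose and 7 fell with sh1. With sh2, 13 of them rose and 5 fell. These genes were not shown to lack the element. The outer edge of the HSPD1 3-unit match is 294 bases from the HSPE1 start, outside the HSPE1 window. Of all genes tested, 34.7% were higher and 34.6% lower with sh1, and 34.2% and 34.3% with sh2. The counts are a description, and no difference between these classes was tested.

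Other genes of the same pathways, 64 in a list that held no member, are given for comparison. Of the 59 tested, 24 were higher with sh1 (40.7%) and 23 lower (39.0%), and 37 were higher with sh2 (62.7%) and 13 lower (22.0%), with median log2 differences of -0.05 and 0.21. Of all genes, 34.7% were higher and 34.6% lower with sh1, and 34.2% were higher and 34.3% lower with sh2, so the sh1 shares were near those of all genes. A list of 24 genes known as HSF1 targets, which for the most part repeats members already counted, had 17 higher and 4 lower with sh1 and 21 higher and 2 lower with sh2, with medians of 0.26 and 0.55. HSPA6, an HSP70 gene that is nearly silent without stress, averaged 4.43 CPM in sh1, 6.81 CPM in sh2 and 3.78 CPM in control libraries. It was called with sh2 (log2 0.85 ± 0.140, adjusted p = 3.58e-06) and not with sh1 (log2 0.23 ± 0.154, adjusted p = 0.185). GRPEL2, a nucleotide exchange factor of mitochondrial HSP70, fell with both hairpins, at 28.1 CPM in sh1, 31.9 CPM in sh2 and 73.7 CPM in control libraries (log2 -1.39 ± 0.0553 and -1.21 ± 0.0530). DNAJC8, an HSP40 relative tied to splicing, fell with sh1 alone, at 32.2 CPM in sh1, 160 CPM in sh2 and 114 CPM in control libraries (log2 -1.83 ± 0.0482 with sh1 and 0.48 ± 0.0369 with sh2). DNAJB5 rose with both, from few reads, at 2.33 CPM in sh1, 3.58 CPM in sh2 and 1.27 CPM in control libraries (log2 0.87 ± 0.230 and 1.49 ± 0.209). The HSP70 relative HSPA12A rose with sh1 and fell with sh2, at 25.2 CPM in sh1, 9.02 CPM in sh2 and 13.8 CPM in control libraries (log2 0.87 ± 0.0742 and -0.61 ± 0.0899). The disaggregase gene CLPB rose with sh1 (log2 0.90 ± 0.0742), at 29.1 CPM in sh1, 15.9 CPM in sh2 and 15.6 CPM in control libraries. HSPB6, a small heat shock protein, had 18, 12 and 18 counts in sh1, 9, 5 and 8 in sh2, and 6, 7 and 12 in control libraries. It passed the filter on low counts through sh1 alone, the group where it is high, so its call is no support for a difference. The same holds for CCT6B, a second form of the CCT6 subunit, which passed through sh2 alone, at 0.520 CPM in sh1, 1.49 CPM in sh2 and 0.614 CPM in control libraries. Both are among the 59 counted as tested. The factor gene HSF4 fell with sh2 (log2 -0.90 ± 0.0775), at 19.5 CPM in sh1, 11.3 CPM in sh2 and 21.0 CPM in control libraries.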

How the data were processed

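RNA of 1 sample per group was sequenced on the BGISEQ-500 platform (per the labels' protocols). Per the submitters' processing notes, the tools included RSEM 1.2.12 with the build hg19, besides the aligners Bowtie2 2.2.5 and HISAT2 2.0.4, and DESeq2 1.4.5, with no parameters or order given. The authors deposited, for each of the 9 tables, an expected count (estimated reads per gene), a TPM and an FPKM value and a transcript-weighted length for 19266 Entrez identifiers. The deposited expected counts are not normalized, whereas the deposited TPM and FPKM are scaled to length and to the library.

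Expected counts were rounded, filtered with filterByExpr, scaled by TMM and fitted over all 9 libraries by edgeR 4.0.16 (quasi-likelihood test, group as the single term, R 4.3.3). P-values were adjusted over all 13580 genes tested by Benjamini-Hochberg, with calls below 0.05. SE is the size of the log2 difference over the root of the F statistic. CPM are TMM-scaled. A count floor of 3 corresponds to 0.187 to 0.204 CPM, and it covers counting error only. The fit was tested on simulated data. Alternatives were limma 3.58.1 on FPKM, DESeq2 1.42.0 size factors and test, other scalings and filters, and each library left out. Symbols came from RefSeq by Entrez identifier, for 19223 identifiers.

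The members and lists were chosen with earlier results of these data known. Genes named were all members by role, with full values for the HSP70, HSP90 and HSF genes and the 8 called members of largest change in each comparison, and the pathway genes with the 2 largest rises and falls. HSPA6, and members outside this rule that are given library by library, were chosen after their values were seen. Chi-square per degree of freedom between the tables of a group was 1.49 in sh1, 2.03 in sh2 and 1.75 in control, above sampling noise.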

Additional observations from a re-analysis of the deposited data

Results flagged for a closer look

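The 8 members flagged were called in opposite directions by sh1 and sh2 against control. A call between the hairpins by edgeR's quasi-likelihood test was part of the rule that chose them. That direct call is therefore no added support for a difference. The log2 difference of sh1 against sh2 was 1.07 for HSPH1, 0.85 for BAG1, 0.57 for BAG2 and 0.57 for FKBP5. It was -1.10 for BAG3, -0.92 for HSPE1, -0.80 for DNAJA2 and -0.63 for CCT8. The calls of BAG2 and FKBP5 for sh2 against control were the ones lost when single libraries were left out.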

How the results depend on the processing

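Over 19 alternatives the members called higher and lower numbered 25 to 29 and 11 to 13 for sh1 against control, 33 and 6 to 9 for sh2 against control, and 11 to 13 and 30 to 31 for sh1 against sh2. Of 2601 values of single genes, 2522 kept their direction and their side of the threshold, 28 lost a call, 35 gained one and 16 changed sign, all of them near 0 and not called. With a library left out, log2 differences ranged from -0.017 to 0.012 for CDC37, -0.047 to 0.010 for DNAJC7 and -0.020 to 0.060 for STUB1 (sh1 against control), from -0.017 to 0.036 for TRAP1 and -0.0083 to 0.056 for HSF2 (sh2 against control), and from -0.0012 to 0.031 for HSP90AA1 (sh1 against sh2). CDC37 was also at 0.0012 with library totals, at 0.00037 on FPKM with a pseudocount of 1, with or without the filter, and at 0.00038 with a pseudocount of 0.1, and TRAP1 at -0.00025 without the filter; the cause was not tested. Deviations of same-numbered tables correlated at -0.077 to 0.043, which gave no sign that numbers pair the tables. Counting noise lowers such correlations, so pairing is not excluded. The replicate block gave 28 higher and 12 lower with sh1, 33 and 9 with sh2, and 12 and 31 for sh1 against sh2. Low counts limit DNAJA4, CRYAB, HSPB6 and CCT6B. With 1 sample per group and tables of unknown kind, nothing here can be taken to measure the spread between cultures.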

Other observations

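The chaperonin HSPD1 and its lid HSPE1 were set against each other after their values were seen. The TPM ratio of HSPD1 to HSPE1 was 3.82, 3.60 and 3.46 in sh1, 1.75, 1.75 and 1.74 in sh2, and 1.93, 1.99 and 1.98 in control libraries. The groups did not overlap (exact permutation p = 0.1 for each pair, the smallest that 3 against 3 allows). The transcript-weighted length of DNAJB6, picked after the lengths were seen, averaged 1932 bases in sh1, 1848 bases in sh2 and 1754 bases in control libraries. The groups did not overlap, so the mix of its transcripts differed as estimated from the reads. Lengths of HSPA14 and BAG5 were also apart from control with both hairpins. Those of DNAJA3, DNAJB2, AHSA1, STUB1 and CCT2 were apart from control with a single hairpin. The share over all genes was not taken.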
